A study of Schmidtea mediterranea with 60 samples.

Results

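Gene expression at the wound was compared between bmp4 RNAi and control fragments of the planarian Schmidtea mediterranea at 6 h post amputation (hpa), in the early wound response. The labels for time and RNAi condition select 10 of the 60 libraries of the series, 5 control and 5 bmp4 RNAi. All animals were of the strain CIW4, a clonal line, and all were fed liver mixed with double-stranded RNA (dsRNA) in 4 feedings. The dsRNA matched bmp4 in one group. In the control group it matched unc-22, which belongs to the nematode C. elegans. Animals were cut 7 days after the last feeding, and post-pharyngeal (tail) fragments were left for 6 h. RNA of the anterior-facing wounds was then collected, with 5 wounds pooled in each replicate. Feeding delivers dsRNA to the whole animal for days before the cut, so the wound tissue differed in its history as well as in its response. The other 50 libraries cover the same 2 conditions at 0, 3, 16, 24 and 48 hpa and entered where the 6 hpa difference was set against other times.

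Bone morphogenetic proteins (BMPs) are secreted ligands that bind receptor kinases and act on transcription through Smad proteins. Noggin proteins bind BMP ligands outside the cell and keep them from their receptors, and SKI proteins repress Smad-dependent transcription in mammals. In planarians bmp4 is expressed dorsally and patterns the dorsal-ventral axis, and dorsal tissue is lost during turnover when it is inhibited. Amputation itself is followed within hours by a wave of wound-induced transcription in epidermis, muscle and stem cells, before new tissue forms. Planarian muscle cells carry positional information and produce much of the extracellular matrix, and cilia of the epidermis drive gliding.

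The transcript on which the study centres is equinox (dd_20318), which encodes a predicted secreted protein of the wound epidermis. The first 180 bases of its coding sequence are shown because equinox is the wound gene followed library by library here. They were taken from a supplementary table of the study, are written 5′ to 3′, and have the start codon in capitals.
equinox: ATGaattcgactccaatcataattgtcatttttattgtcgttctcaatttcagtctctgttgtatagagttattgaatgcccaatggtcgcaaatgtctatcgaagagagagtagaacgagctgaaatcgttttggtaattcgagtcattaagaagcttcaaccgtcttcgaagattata

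The 10 libraries held 13041181 to 23912275 counts each. Levels are given as CPM, counts scaled to library size by trimmed mean of M values (TMM) factors, and they are not divided by transcript length, so that a level is compared between libraries and not between genes. A transcript was called when its edgeR adjusted p was below 0.05. Where no times are named, fell and rose mean lower and higher in bmp4 RNAi than in control. Replicate 3 of bmp4 RNAi stood apart from the other 9 libraries. Its TMM factor was 1.09 against 0.939 to 0.998, its 10 most abundant transcripts took 7.64% of counts against 9.11 to 9.97%, and its mean correlation with its own group was 0.979 against 0.987 to 0.991 in the others. Counts of calls were therefore also taken without it. Mitochondrial transcripts took 0.289 ± 0.0499% of counts in control and 0.322 ± 0.142% in bmp4 RNAi (SD, n = 5; exact permutation p = 0.794, two-sided), with 0.195% in replicate 3 and 0.565% in replicate 5 of bmp4 RNAi. Of the 7 vertebrate liver and plasma proteins listed as markers of the food, 0 passed the filter on low counts, and their names drew 6 counts in all. Reads were mapped to the planarian transcriptome alone, so these counts cannot show whether RNA of the food was present. No pair of libraries agreed within sampling noise. A replicate is a pool of wounds, and a p-value measures the spread among such pools. In a tissue sample, fewer cells of a type and less RNA per cell cannot be told apart.

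The targeted transcript was lower at 6 hpa in every library labelled bmp4 RNAi, but it was scarce. bmp4 (dd_17402) measured 3.27, 2.42, 2.66, 2.25 and 3.47 CPM in control replicates 1 to 5 and 1.84, 0.863, 0.565, 1.79 and 0.487 CPM in bmp4 RNAi. The 2 groups did not overlap, with means of 2.81 ± 0.532 and 1.11 ± 0.659 CPM (SD, n = 5), and the exact permutation test on log2(CPM + 1) gave p = 0.00794, the smallest that 5 against 5 allows (0.0119 adjusted over 3 tests). The edgeR fit of all 60 libraries put the log2 fold change at -1.35 (SE 0.643, adjusted p = 0.152), which is not past the threshold. Fitted on the 10 libraries alone the change was -1.36, with an edgeR adjusted p of 0.0137. At 0 hpa the libraries labelled bmp4 RNAi held more bmp4 reads than the control, 6.88 ± 1.20 against 2.91 ± 0.249 CPM, the reverse of the order at 6 hpa. Their mean was also above control at 3 hpa (6.85 ± 3.87 against 2.29 ± 0.715 CPM), 16 hpa (4.46 ± 5.28 against 3.51 ± 0.886 CPM) and 24 hpa (6.69 ± 6.75 against 3.84 ± 0.920 CPM), with a wide spread among them. Only at 6 and 48 hpa was it below, at 48 hpa with 1.68 ± 0.968 against 5.68 ± 0.617 CPM. In the same 0 hpa libraries other transcripts had the order they had at 6 hpa. There equinox was 1.23 ± 0.257 CPM in bmp4 RNAi against 4.75 ± 0.555 CPM in control, and BCKDHA, described below, 0.747 ± 0.594 against 34.3 ± 3.94 CPM. The cause of the excess of bmp4 reads was not tested. The knockdown is therefore read at 6 hpa only from the libraries of that time.

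Among transcripts of the BMP and TGF-beta pathway a noggin fell and a SKI rose, and with bmp4 and the other noggin 4 were tested. Of all transcripts 7.43% were called lower and 9.67% higher, and 4 members are too few to read against these shares. NOG (dd_10469) measured 16.9, 14.9, 15.8, 14.7 and 14.0 CPM in control and 7.16, 11.1, 8.01, 11.3 and 13.9 CPM in bmp4 RNAi. All 5 RNAi libraries lay below all 5 controls, by little in replicate 5, and the log2 fold change was -0.57 (SE 0.126, edgeR adjusted p = 0.000604). The other noggin measured, NOG (dd_10386), had 6.09 to 8.41 CPM in control and 6.04 to 6.55 CPM in bmp4 RNAi, and its change of -0.18 did not pass the test (edgeR adjusted p = 0.302). SKI (dd_10394) measured 27.9, 29.5, 31.2, 29.3 and 28.7 CPM in control and 34.6, 42.0, 32.6, 39.1 and 36.1 CPM in bmp4 RNAi. Every RNAi library was above every control, 1.26-fold on average (log2 0.33, SE 0.0733, edgeR adjusted p = 0.000622). These names are the best human or mouse protein matches in the study's table and do not show orthology.

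The wound epidermis gene equinox was lower at 6 hpa in every bmp4 RNAi library than in any control library. It measured 11.8, 11.5, 13.8, 12.4 and 11.7 CPM in control and 4.14, 3.32, 2.68, 1.60 and 2.97 CPM in bmp4 RNAi. The highest RNAi library held 4.14 CPM and the lowest control 11.5 CPM, so the groups lay far apart. Means were 12.3 ± 0.908 and 2.94 ± 0.928 CPM (SD, n = 5), a 4.14-fold lower level (log2 -2.05, SE 0.145, edgeR adjusted p = 1.38e-17; exact permutation p = 0.00794). In control wounds equinox had risen by 1.37 on the log2 scale from 0 to 6 hpa (edgeR adjusted p = 5.11e-12), from 4.75 ± 0.555 CPM. In bmp4 RNAi it was 1.23 ± 0.257 CPM at 0 hpa, already below control, and its mean also rose, to 2.94 CPM at 6 hpa. The RNAi difference was present at every other time, from -1.71 at 3 hpa to -2.70 at 48 hpa on the log2 scale. The 6 hpa difference minus that at 0 hpa was -0.09, which did not pass the test (edgeR adjusted p = 0.970).

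Over all transcripts, bmp4 RNAi changed many by small amounts and few by large amounts. Of 18510 transcripts tested, 3166 were called (17.1%), 1790 higher in bmp4 RNAi (9.67%) and 1376 lower (7.43%). Without bmp4 RNAi replicate 3 the number was 2326, with 1300 higher and 1026 lower, and 2128 of these were among the 3166. The median change of called transcripts was 0.47 among those higher and -0.38 among those lower, and 2140 of the calls were under 1.5-fold. At 2-fold or more there were 351, of which 181 were higher and 170 lower. At 4-fold or more the balance turned to 46 lower and 6 higher. The groups did not overlap in 2155 transcripts (11.6%), with bmp4 RNAi above control in 5.72% and below it in 5.92%. The median of all transcripts tested was 0.02, and with library totals as the scale it was 0.07. On that scale 2240 of 3333 calls were higher (67.2%, against 56.5% with TMM), so the share of rises depends on the scaling.

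**Figure D1:**
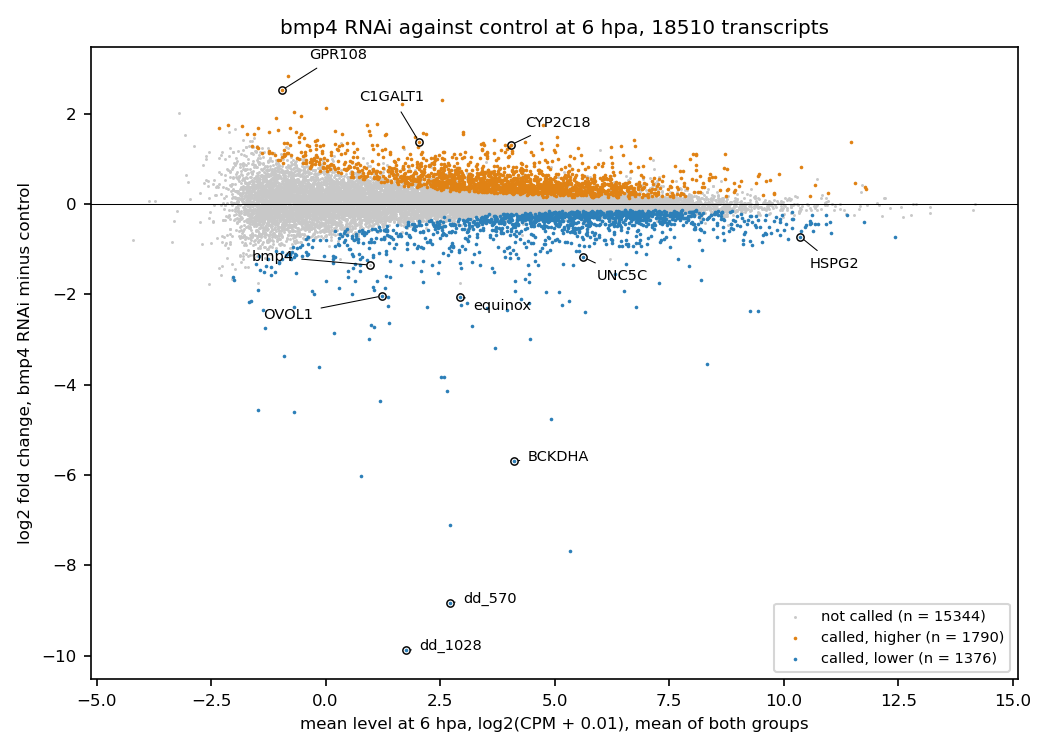
Log2 fold change of bmp4 RNAi minus control at 6 hpa (vertical axis) against mean level, log2(CPM + 0.01) (horizontal axis), for each of 18510 transcripts. Orange points are the 1790 called higher, blue the 1376 called lower and grey the 15344 not called, and the deepest named falls, BCKDHA and the unmatched dd_570 and dd_1028, lie far below equinox.

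Beside equinox, the deepest falls with a name were in an enzyme, BCKDHA, and a transcription factor, OVOL1. Names were at hand for 748 of 1200 transcripts in the annotated portion of the study's table. Of these 579 were tested and 139 called (24.0%, against 17.1% of all), 85 higher and 54 lower, and 89 were called without overlap of the groups. BCKDHA (dd_10732), matched to the alpha subunit of the branched-chain keto acid dehydrogenase, which breaks down branched-chain amino acids, measured 36.0, 34.9, 37.2, 30.6 and 31.8 CPM in control. In bmp4 RNAi it measured 0.869, 0.133, 0.754, 0.616 and 0.779 CPM. It was close to absent in all 5 RNAi libraries, 51.5-fold below control (log2 -5.69, SE 0.285, edgeR adjusted p = 3.15e-22), and at the other 5 times the change lay between -5.63 and -4.98. OVOL1 (dd_10673), matched to a zinc finger transcription factor that acts in epithelial differentiation in mice, measured 3.51, 3.67, 4.19, 3.67 and 3.79 CPM in control and 0.972, 0.730, 0.989, 0.801 and 1.02 CPM in bmp4 RNAi. Both groups were tight and wide apart, with a 4.09-fold lower level in bmp4 RNAi (log2 -2.03, SE 0.219, edgeR adjusted p = 6.58e-11). OVOL1 was already lower at 0 hpa, at 1.29 ± 0.419 CPM in bmp4 RNAi against 6.19 ± 1.28 CPM in control (SD, n = 5).

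Receptors of the UNC5 family, which mediate repulsion of axons from netrin in worms and mammals, fell together but to different depths. UNC5C (dd_10730) measured 71.6, 65.9, 71.7, 64.2 and 69.4 CPM in control and 32.4, 30.7, 29.7, 28.1 and 30.6 CPM in bmp4 RNAi. Both groups were tight, and every RNAi library was far below every control (log2 -1.18, SE 0.0836, edgeR adjusted p = 1.46e-17). UNC5C was already lower at 0 hpa, at 17.9 ± 1.66 CPM in bmp4 RNAi against 39.2 ± 4.14 CPM in control (SD, n = 5). UNC5B (dd_10380) measured 50.5, 52.0, 54.7, 47.7 and 46.5 CPM in control and 34.9, 34.5, 30.9, 33.5 and 33.7 CPM in bmp4 RNAi (log2 -0.59, SE 0.0761, edgeR adjusted p = 1.77e-08). UNC5D (dd_10585) measured 33.3, 38.0, 38.4, 36.9 and 36.4 CPM in control and 30.3, 29.2, 31.8, 29.6 and 27.0 CPM in bmp4 RNAi. Its groups were also separate, but its change of -0.31 (edgeR adjusted p = 0.0151) was lost with library totals as the scale (0.0779).

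The other large named falls covered adhesion, transport and metabolism. CTNNAL1 (dd_10625), a protein related to alpha-catenin, measured 37.3, 41.5, 40.3, 39.2 and 35.7 CPM in control and 19.2, 17.6, 24.0, 15.3 and 16.4 CPM in bmp4 RNAi, with no overlap (log2 -1.07, edgeR adjusted p = 3.64e-13). CYP2S1 (dd_10722), a cytochrome P450, fell by 1.12 on the log2 scale and SLC26A5 (dd_10602), an anion transporter of the SLC26 family, by 0.84 (edgeR adjusted p = 0.00031 and 0.00159). CA11 (dd_10750), which resembles carbonic anhydrases, fell by 0.71 (edgeR adjusted p = 0.00883), and without bmp4 RNAi replicate 3 its change was -0.53 (0.0696). Of the transcripts with no match, dd_1028 had 91, 174, 93, 119 and 72 counts in control and 0 in all 5 RNAi libraries, at least 208-fold lower when 3 counts over the group are taken as the floor. The unmatched dd_570 had 190, 347, 196, 205 and 120 counts in control and 0, 1, 1, 0 and 0 in bmp4 RNAi. The reads of both were almost confined to the control group at 6 hpa.

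The largest named rises were smaller than the largest falls and included a pair of enzymes of mucin-type glycosylation. In mammals GALNT1 starts such O-linked sugar chains on proteins and C1GALT1 extends them. C1GALT1 (dd_10507) measured 2.21, 2.94, 2.21, 2.02 and 1.96 CPM in control and 5.88, 5.37, 8.43, 4.50 and 5.55 CPM in bmp4 RNAi (log2 1.38, SE 0.234, edgeR adjusted p = 7.99e-06). GALNT1 (dd_10587) measured 11.6, 14.6, 10.4, 13.9 and 13.5 CPM in control and 22.7, 21.5, 27.9, 21.2 and 20.1 CPM in bmp4 RNAi (log2 0.82, SE 0.106, edgeR adjusted p = 1.88e-08). For both, every RNAi library was above every control and replicate 3 was the highest. CYP2C18 (dd_10682), another cytochrome P450, measured 7.27, 10.9, 11.0, 9.19 and 9.03 CPM in control and 26.2, 22.2, 26.0, 23.0 and 21.4 CPM in bmp4 RNAi. It was the clearest of the rises library by library, from 9.48 ± 1.55 to 23.7 ± 2.19 CPM (SD, n = 5; log2 1.32, SE 0.128, edgeR adjusted p = 2.67e-12).

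GPR108 (dd_10178), a membrane protein, had the largest named rise but a very low level. It measured 0.245, 0.130, 0.0761, 0.0593 and 0.253 CPM in control and 0.869, 0.398, 1.65, 0.431 and 0.926 CPM in bmp4 RNAi (log2 2.52, SE 0.526, edgeR adjusted p = 0.000252). The RNAi libraries were all above the control libraries, with replicate 3 again the highest. DYRK2 (dd_10055), a protein kinase, rose by 0.74, TRPM1 (dd_10029), a cation channel, by 0.62, and RAB11FIP4 (dd_10246), which binds the recycling GTPase Rab11 in mammals, by 0.64 (edgeR adjusted p = 1.09e-07, 3.88e-06 and 1.16e-05). ANKDD1B, LRRD1 and SBNO1 rose by 0.84, 0.70 and 0.57 (edgeR adjusted p = 3.33e-07, 0.000837 and 0.00136). DHRS11, a short-chain dehydrogenase, rose by 0.62 (edgeR adjusted p = 0.0246), a call lost without bmp4 RNAi replicate 4 (0.0601), control replicate 3 (0.116) or control replicate 4 (0.0511). A pair of rises without a name was led by replicate 3. The unmatched dd_25256 had 0, 5, 2, 0 and 4 counts in control and 15, 9, 38, 13 and 20 in bmp4 RNAi (edgeR adjusted p = 0.000222). The unmatched dd_6328_1_1 had 0, 7, 2, 6 and 5 counts in control and 18, 6, 56, 8 and 10 in bmp4 RNAi, and its log2 change of 2.04 (edgeR adjusted p = 0.000776) became 1.24 without that library (0.0648).

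**Figure D2:**
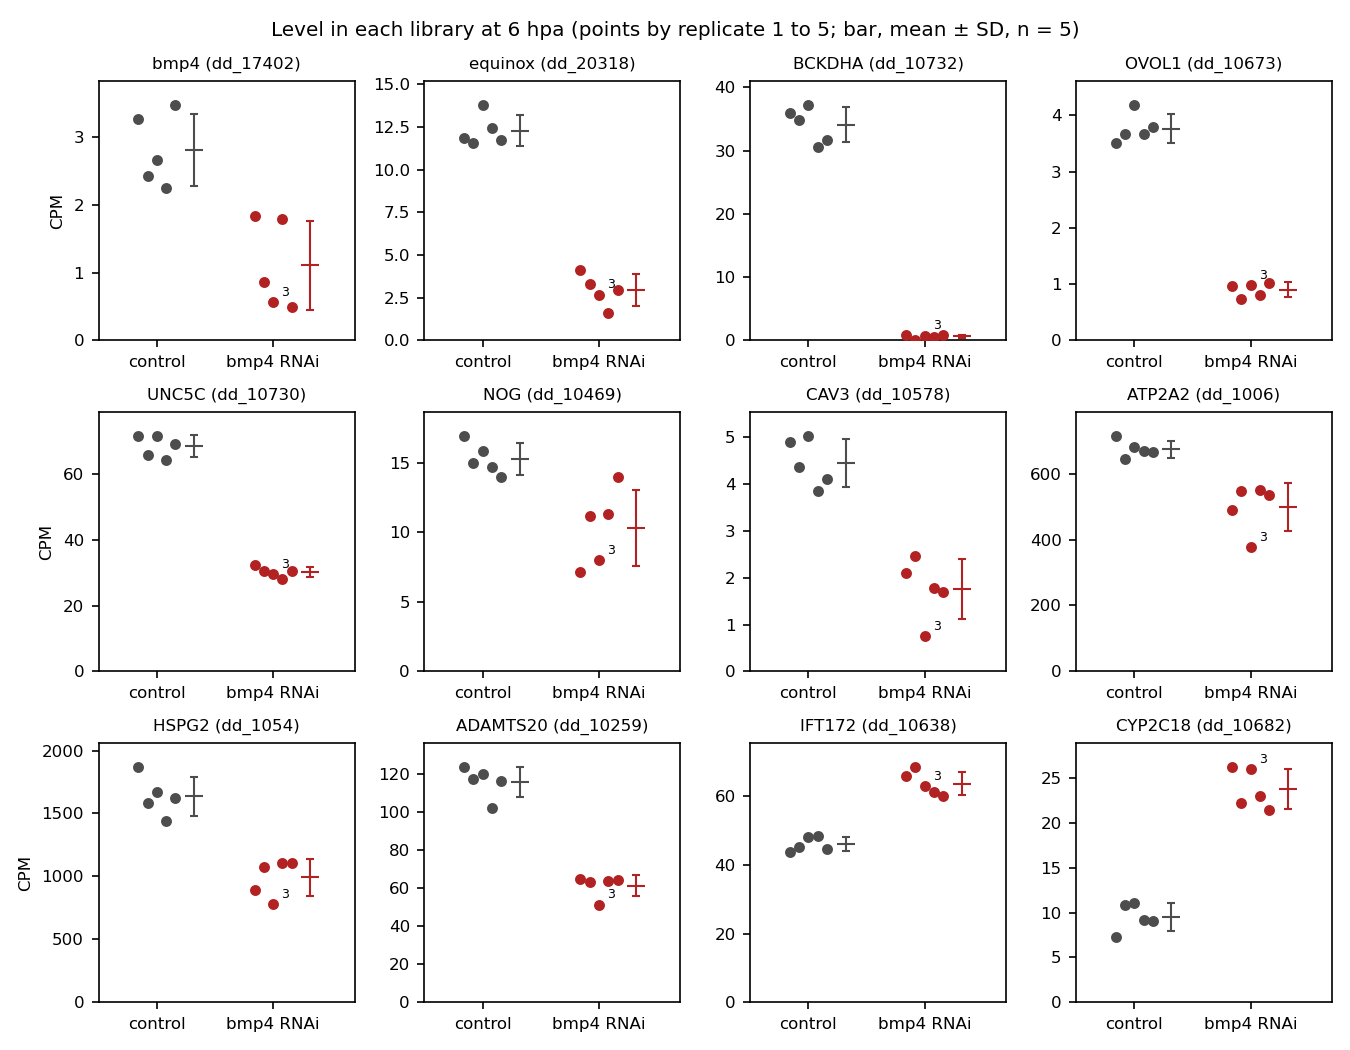
Level in CPM (vertical axis) in each of the 10 libraries at 6 hpa for 12 transcripts, control in grey and bmp4 RNAi in red, with points in the order of replicates 1 to 5 and the mean ± SD (n = 5) beside them. The digit 3 marks bmp4 RNAi replicate 3, which is the lowest RNAi library for CAV3, ATP2A2, HSPG2 and ADAMTS20. The 2 groups do not overlap in any of the 12 panels.

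Most transcripts listed for muscle and the contractile apparatus, by the names of their matches, were lower in bmp4 RNAi wounds. Of 8 members of this muscle list tested, 6 were called lower (7.43% of all transcripts were) and 0 higher. Their median was -0.46 against 0.02 for all transcripts. The summed level of the list was 729 to 802 CPM in control and 444 to 617 CPM in bmp4 RNAi, with the lowest sum in replicate 3. The number called lower was also 6 without that library and under each other setting tried for the list, DESeq2 included, and 0 were higher at an unadjusted p under 0.05. ATP2A2 (dd_1006), the calcium pump of the sarcoplasmic reticulum, measured 714, 644, 680.5, 668 and 664 CPM in control and 489, 547, 377, 549 and 536 CPM in bmp4 RNAi. Replicate 3 was the lowest, and all 5 RNAi libraries were below all controls (log2 -0.43, SE 0.0761, edgeR adjusted p = 1.50e-05). ACTN2 (dd_10174), an actinin that anchors thin filaments at the Z disc, measured 11.6, 10.1, 12.7, 10.8 and 10.3 CPM in control and 7.06, 6.64, 8.43, 8.13 and 7.75 CPM in bmp4 RNAi (log2 -0.54, edgeR adjusted p = 0.000557).

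CAV3 (dd_10578), a muscle caveolin that shapes membrane pits, fell most of the muscle list. It measured 4.90, 4.36, 5.02, 3.85 and 4.10 CPM in control and 2.10, 2.46, 0.754, 1.79 and 1.71 CPM in bmp4 RNAi (log2 -1.35, SE 0.182, edgeR adjusted p = 4.41e-08). CFL1 (dd_10403), an actin-severing cofilin, measured 4.66, 4.75, 5.10, 4.92 and 3.79 CPM in control and 3.12, 2.59, 3.34, 2.83 and 3.51 CPM in bmp4 RNAi (log2 -0.58, edgeR adjusted p = 0.00345). In both, the groups were separate. CAV3 was already lower at 0 hpa, at 0.600 ± 0.137 CPM in bmp4 RNAi against 2.00 ± 0.126 CPM in control (SD, n = 5). KY (dd_10479), needed to maintain muscle in mice, and LDB3 (dd_10318), a Z disc protein, had changes of -0.49 and -0.38 (edgeR adjusted p = 2.45e-06 and 0.0061), with overlap in LDB3, where RNAi replicate 5 held 17.5 CPM within the control range of 16.6 to 21.5. FHL3 and IGSF10 had changes of -0.01 and -0.02 and were not called. At 0, 3, 16, 24 and 48 hpa the same list had 4, 3, 3, 1 and 3 lower calls and 0, 0, 1, 0 and 2 higher calls. These comparisons used the group means of those times within the same fit. Of all transcripts 4.95, 4.32, 9.56, 6.5 and 18.6% were lower at these times.

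Abundant matrix transcripts were lower as well, although the matrix list as a whole was near the median of all transcripts. Of 12 listed, 11 were tested, 5 were called lower and 1 higher (7.43% and 9.67% of all transcripts), and the list's median was -0.10. HSPG2 (dd_1054), the basement membrane proteoglycan perlecan, measured 1869, 1584, 1671, 1439 and 1622 CPM in control and 890.2, 1072, 781, 1110.2 and 1111 CPM in bmp4 RNAi. The lowest control was above the highest RNAi library (log2 -0.72, SE 0.0925, edgeR adjusted p = 1.27e-08). SPARCL1 (dd_1021), a calcium-binding matrix protein, measured 357, 330.2, 392, 303 and 342 CPM in control and 211, 249, 173, 269.8 and 275 CPM in bmp4 RNAi (log2 -0.55, edgeR adjusted p = 8.54e-07). FBN2 (dd_10142), a microfibril fibrillin, measured 39.3, 44.0, 40.3, 39.1 and 38.2 CPM in control and 30.2, 27.4, 26.3, 31.3 and 32.7 CPM in bmp4 RNAi (log2 -0.44, edgeR adjusted p = 6.40e-05).

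ADAMTS20 (dd_10259), a secreted metalloproteinase that processes matrix proteoglycans in mice, was the wound-induced member of the matrix list with the deepest fall. It measured 124, 117, 119.9, 102 and 117 CPM in control and 64.9, 63.1, 51.4, 63.7 and 64.3 CPM in bmp4 RNAi. Its level was 1.89-fold lower with no overlap (116 ± 8.09 against 61.5 ± 5.68 CPM, SD, n = 5; log2 -0.92, SE 0.0824, edgeR adjusted p = 1.47e-13). COL2A1 (dd_1070), a fibrillar collagen, had a change of -0.45 (edgeR adjusted p = 0.0230) that rested on few libraries. The adjusted p was 0.147 without bmp4 RNAi replicate 3, 0.0716 without replicate 1 and 0.0584 without control replicate 3. LOXL2, which cross-links collagen, had a change of 0.32 (edgeR adjusted p = 0.0333), lost when any of 7 libraries was left out (0.0579 to 0.091). The summed level of the list was 3485 to 4316 CPM in control and 1932 to 3099 CPM in bmp4 RNAi, mostly from HSPG2 and COL2A1.

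Cilia transcripts that were called were all higher. Of 29 cilia proteins listed, 17 passed the filter, of which 8 were called higher and 0 lower by edgeR (7 and 0 by DESeq2, and 14 and 0 at an unadjusted p under 0.05), with a median of 0.31. Of all transcripts 9.67% were called higher. Their summed level was 335 to 380 CPM in control and 445 to 477 CPM in bmp4 RNAi. The number called was 11 without bmp4 RNAi replicate 3, and 7 to 11 without each library in turn. IFT172 (dd_10638), a carrier of cargo along the cilium in intraflagellar transport, measured 43.7, 45.3, 48.1, 48.4 and 44.6 CPM in control and 65.6, 68.3, 62.7, 61.0 and 60.1 CPM in bmp4 RNAi (log2 0.47, SE 0.0653, edgeR adjusted p = 1.18e-07). CFAP43 (dd_10271), a protein of motile axonemes, measured 30.9, 32.8, 32.4, 36.4 and 31.8 CPM in control and 50.3, 50.2, 50.7, 44.1 and 41.2 CPM in bmp4 RNAi (log2 0.52, edgeR adjusted p = 1.07e-05). Each RNAi library exceeded each control in both.

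FOXJ1, the transcription factor that drives motile cilia programs in vertebrates and planarians, followed the same direction. It measured 22.9, 23.8, 28.1, 26.2 and 25.0 CPM in control and 33.7, 31.6, 31.3, 32.2 and 35.7 CPM in bmp4 RNAi, without overlap (log2 0.39, edgeR adjusted p = 0.000508). The dynein heavy chain DNAH10, TRAF3IP1 of intraflagellar transport, MAATS1 and ZMYND12 rose by 0.54, 0.55, 0.56 and 0.44 (edgeR adjusted p = 0.000192, 5.84e-06, 0.000181 and 0.000293). The eighth, the kinesin KIF17, had a change of 0.31 (edgeR adjusted p = 0.0478), and it was lost without 7 of the 10 libraries in turn (0.0597 to 0.134). At 0, 3, 16, 24 and 48 hpa 12, 13, 5, 14 and 15 members were called higher, against 6.45, 6.95, 9.68, 10.2 and 17.3% of all transcripts. Each comparison used the group means of its own time within the same fit.

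**Figure D3:**
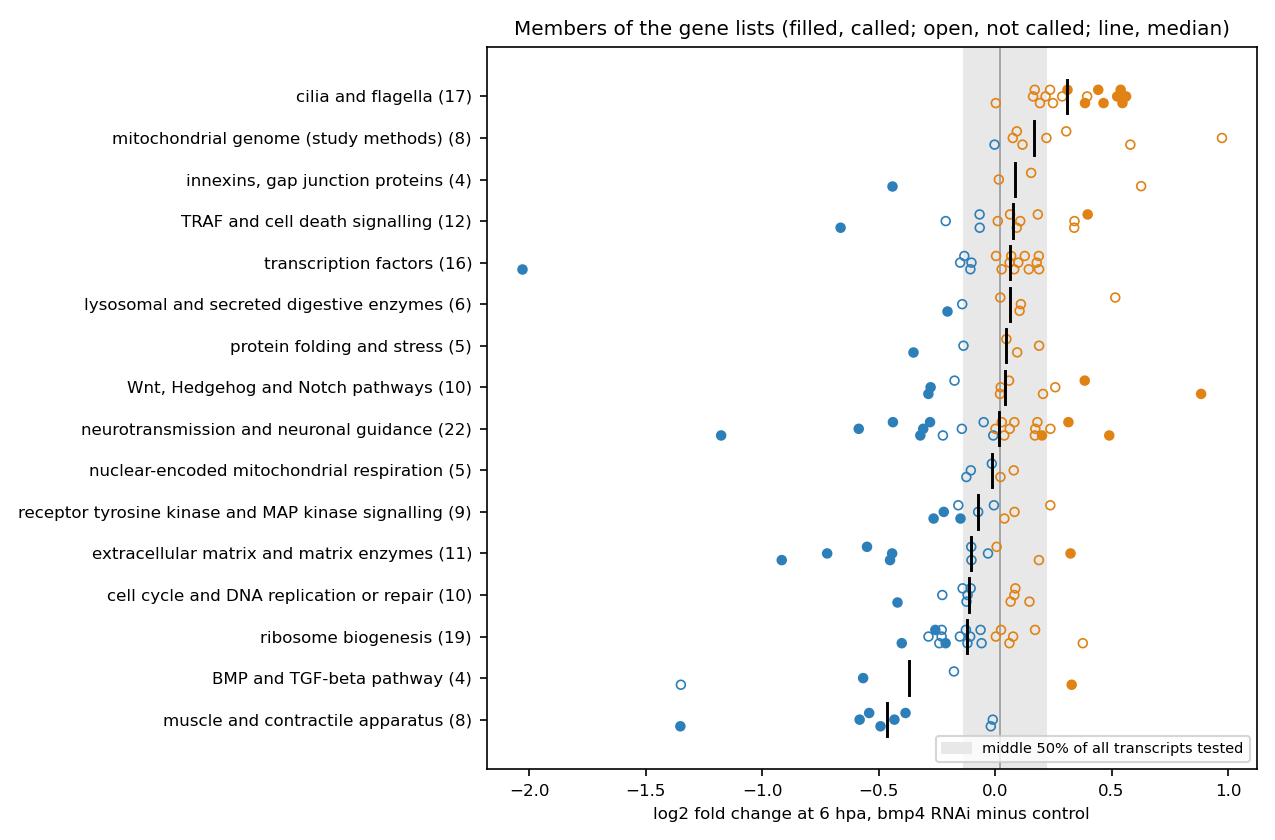
Log2 fold change at 6 hpa (horizontal axis) of each tested member of 16 gene lists, with the number tested in parentheses. Filled points are called and open points are not, black lines are list medians and the grey band is the middle 50% of all transcripts tested (-0.13 to 0.22). The medians of muscle, -0.46, and cilia, 0.31, lie outside the band on opposite sides. The median of the 4 BMP and TGF-beta members, -0.37, also lies below it.

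Neuronal transcripts moved in both directions. Of 26 listed, 22 were tested, with 6 called lower and 3 higher, and the median was 0.02. Of all transcripts 7.43% were lower and 9.67% higher, so that the rises were near the background share. The falls were the UNC5 receptors above, GRIA4 and LRRC4B, which belong to excitatory synapses in mammals, and the glycine transporter SLC6A5. GRIA4 measured 45.1, 45.1, 53.0, 46.1 and 42.4 CPM in control and 35.0, 32.4, 32.7, 36.1 and 34.6 CPM in bmp4 RNAi, without overlap (log2 -0.44, edgeR adjusted p = 4.99e-06). LRRC4B and SLC6A5 had changes of -0.32 and -0.28 (edgeR adjusted p = 0.00056 and 0.0035). The potassium channel KCNN2 rose by 0.49 (edgeR adjusted p = 0.00122). The receptor subunits CHRNB3 and GLRA2 had changes of 0.31 and 0.20 (edgeR adjusted p = 0.00579 and 0.0231), and both calls rested on single libraries. CHRNB3 went to 0.20 without bmp4 RNAi replicate 3 (0.109), and GLRA2 lost its call without bmp4 RNAi replicate 4 (0.0714), control replicate 1 (0.0651) or control replicate 5 (0.0976).

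Signalling lists held single changes and no shared direction. Of 10 Wnt, Hedgehog and Notch members tested, 2 were higher and 2 lower, too few to read against 9.67% and 7.43% of all. NOTCH1 (dd_10716), the receptor, measured 21.98, 24.9, 26.7, 25.1 and 26.7 CPM in control and 20.5, 20.3, 23.0, 18.6 and 20.4 CPM in bmp4 RNAi, with an overlap between control replicate 1 and RNAi replicate 3 (log2 -0.29, edgeR adjusted p = 0.0107). MIB2 (dd_10104), a ubiquitin ligase that acts on Notch ligands in mammals, rose by 0.88 (edgeR adjusted p = 0.0149), lost without bmp4 RNAi replicate 1 (0.0723) or control replicate 2 (0.056). SUFU, which restrains Hedgehog signalling, had a change of -0.28 (edgeR adjusted p = 0.00825, or 0.0568 without bmp4 RNAi replicate 3). NEURL2 had a change of 0.39 (edgeR adjusted p = 0.0324), with 0.197 without bmp4 RNAi replicate 3 and 0.0677, 0.0714 and 0.109 without control replicates 2, 4 and 5.

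Of 9 receptor tyrosine kinase members tested, 3 were lower and 0 higher by edgeR (3 and 0 by DESeq2, and 4 and 1 at an unadjusted p under 0.05). Of all transcripts 7.43% were called lower and 9.67% higher, and the list is too short to read against these shares. The kinase TNK2 fell by 0.26 (edgeR adjusted p = 0.000372), while CBLB and ERBB4 had changes of -0.15 and -0.22 (edgeR adjusted p = 0.0201 and 0.0451). CBLB lost its call without bmp4 RNAi replicate 5 (0.0558), control replicate 2 (0.0582) or on library totals (0.207), and ERBB4 without any of 5 libraries (0.0531 to 0.303). Of 13 members listed for TRAF and cell death signalling, 12 were tested, and 1 was called lower and 1 higher, near the shares of all transcripts. The 2 called were transcripts matched to TRAF2, an adaptor of tumour necrosis factor receptors in mammals, which moved apart. TRAF2 (dd_10569) measured 21.8, 20.3, 18.8, 20.3 and 23.9 CPM in control and 15.6, 15.7, 11.7, 12.3 and 11.1 CPM in bmp4 RNAi (log2 -0.66, SE 0.114, edgeR adjusted p = 8.78e-06). TRAF2 (dd_10117) measured 19.4, 23.5, 29.0, 22.3 and 19.6 CPM in control and 30.9, 29.1, 30.6, 29.2 and 30.0 CPM in bmp4 RNAi (log2 0.40, edgeR adjusted p = 0.000605). Each was separate between the groups. Reads of near-identical copies could be shared between them, since the treatment of multiply mapping reads was not given in the sources used here.

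In lists of basic cell functions, most members were not called. Of all transcripts 7.43% were called lower and 9.67% higher. Of 16 transcription factors tested only OVOL1 was called. Of 19 members of ribosome assembly, 3 were called lower and 0 higher, with a median of -0.12. At an unadjusted p under 0.05, 8 were lower and 0 higher, against 2290 and 3053 of all 18510 transcripts. NOL10 fell by 0.40 (edgeR adjusted p = 0.00475), and WDR46 and MTREX had changes of -0.26 and -0.21 (edgeR adjusted p = 0.0163 and 0.0147). WDR46 lost its call without bmp4 RNAi replicate 1 (0.0565) or control replicate 4 (0.0671), and MTREX without bmp4 RNAi replicate 1 (0.0616) or 3 (0.0733). Of 10 cell cycle members tested, of 15 listed, WDHD1, a replication factor, had a change of -0.42 (edgeR adjusted p = 0.0285), lost without bmp4 RNAi replicate 1 (0.0573), replicate 3 (0.17) or control replicate 4 (0.0622). Of 4 innexins, which form gap junctions in invertebrates, PANX2 fell by 0.44 (edgeR adjusted p = 0.000322). Among folding proteins PDIA6, a disulfide isomerase, had a change of -0.35 (edgeR adjusted p = 0.00641, or 0.054 without bmp4 RNAi replicate 3), and among lysosomal proteins ACP7 had one of -0.21 (edgeR adjusted p = 0.0411), lost without any of 6 libraries (0.0508 to 0.226). Of 5 respiration proteins and 8 mitochondrial genome transcripts, 0 were called by edgeR or by DESeq2, and 1 of the latter had an unadjusted p under 0.05.

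About 1 in 3 of the transcripts induced by amputation in control animals were lower at 6 hpa in bmp4 RNAi, and few were higher. The response was taken from control means at other times, at 0 against 3 hpa or 0 against 16 hpa. Transcripts called and changed by at least 2-fold formed the sets. The 6 hpa means did not enter that comparison. The filter, the scaling and the spread behind the calls came from the fit of all 60 libraries, those of 6 hpa included. Of 110 transcripts induced at 3 hpa, 37 were lower in bmp4 RNAi at 6 hpa (33.6%, against 7.43% of all) and 1 was higher. Their median was -0.40, and 82.7% lay below 0, against 46.4% of all transcripts. The mean log2 CPM of the set was 2.70 to 2.80 in the control libraries and 2.19 to 2.45 in bmp4 RNAi, and 32 members did not overlap between groups, with RNAi below (5.92% of all did so). Among the 16 induced at least 4-fold, 6 were lower and the median was -0.65. For transcripts that the libraries of 3 hpa called as reduced, 51 in number, 6 were higher, 0 lower and the median was 0.24. The share higher, 11.8%, was near the 9.67% of all transcripts.

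The set from 16 hpa gave a like picture with more members. Of 393 transcripts induced by then, 127 were lower at 6 hpa (32.3%) and 4 higher, with a median of -0.33. The set's mean log2 CPM was 2.07 to 2.14 in control and 1.63 to 1.75 in bmp4 RNAi, and 102 members were without overlap. Among the 80 induced at least 4-fold, 37 were lower, with a median of -0.75. Of 270 transcripts reduced at 16 hpa, 34 were higher (12.6%, against 9.67% of all) and 13 lower (4.81%, against 7.43%), with a median of 0.24. Named members induced at 16 hpa were ADAMTS20, HSPG2, CAV3, NOTCH1 and equinox, whose values are given above, and HSPB1, COLEC10 and PLCB1, whose names were read after their values were seen. HSPB1, a small heat shock protein also induced at 3 hpa, measured 283, 369, 324, 406 and 295 CPM in control and 396, 356, 502, 328 and 331 CPM in bmp4 RNAi. The ranges overlapped widely and the change of 0.19 was not called (edgeR adjusted p = 0.390). COLEC10, a lectin, measured 108, 70.4, 89.1, 28.4 and 224 CPM in control and 35.1, 50.8, 47.0, 54.5 and 37.2 CPM in bmp4 RNAi, a spread too wide for its change of -1.21 to pass (edgeR adjusted p = 0.0968). The set induced at 3 hpa had 44 lower and 10 higher members at 16 hpa, 39 and 7 at 24 hpa, and 50 and 8 at 48 hpa. Of all transcripts 9.56%, 6.5% and 18.6% were lower at these times, and 9.68%, 10.2% and 17.3% higher. The set induced at 16 hpa had 55 lower and 14 higher members at 3 hpa, against 4.32% and 6.95% of all. A lower level at 6 hpa can go with a lower level before the cut or with a smaller rise, and the sets were not split by this. Of the named members, equinox and CAV3 were already well below control at 0 hpa. ADAMTS20 was a little below control then, at 32.1 ± 2.61 against 38.3 ± 3.61 CPM. NOTCH1 was a little above it, at 14.3 ± 0.890 against 12.3 ± 1.53 CPM.

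**Figure D4:**
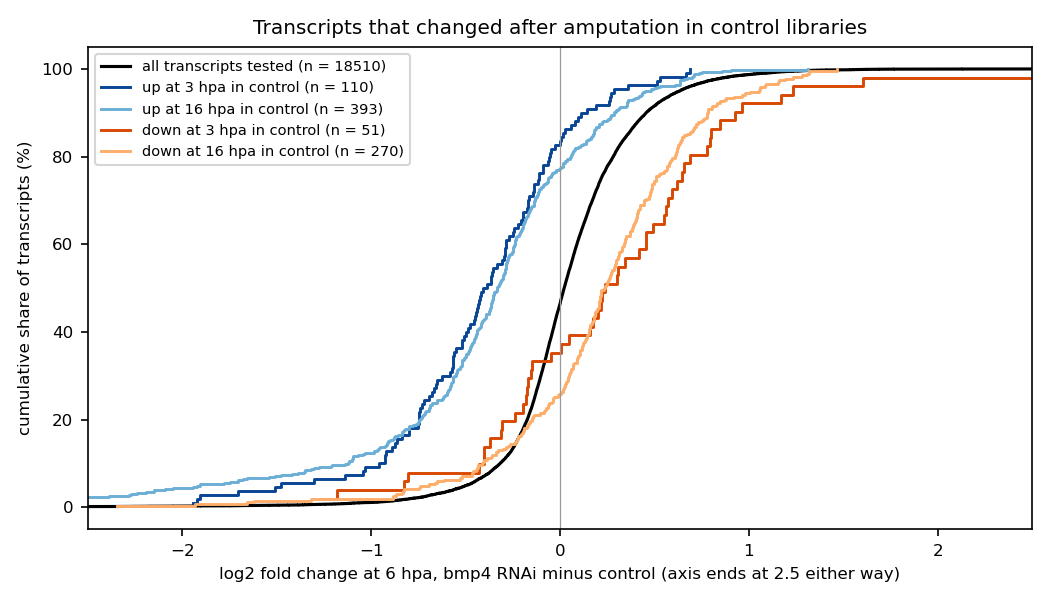
Cumulative share of transcripts (vertical axis) at or below each log2 fold change at 6 hpa (horizontal axis, ending at -2.5 and 2.5), for all 18510 transcripts and for 4 sets induced or reduced in control wounds at 3 or 16 hpa. The curves of both induced sets run left of that for all transcripts, with medians of -0.40 and -0.33, and those of the reduced sets run right of it over most of their length, with both medians at 0.24.

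Part of the 6 hpa difference was already present when the fragments were cut. The 0 hpa test passed in the same direction for 1367 of the 3166, namely 765 of the 1790 higher and 602 of the 1376 lower. The sign alone matched in 2847. The median change at 0 hpa was 0.30 for the 1790 and -0.22 for the 1376, against 0.47 and -0.38 at 6 hpa. The shares that follow start instead from the 0 hpa calls. Of 1194 transcripts called higher at 0 hpa in the libraries labelled bmp4 RNAi, 765 were called higher (64.1%, against 9.67% of all) and 4 lower at 6 hpa, with a median of 0.41. Of 916 called lower at 0 hpa, 602 were lower (65.7%, against 7.43% of all) and 3 higher, with a median of -0.40. These sets were chosen on the group means at 0 hpa, in the same fit of all 60 libraries that gave the 6 hpa calls. The change between the times was tested directly as the 6 hpa difference minus the 0 hpa difference, in one fit. It passed in 58 transcripts (0.313%), 19 positive and 39 negative, and 1628 had an unadjusted p under 0.05. Of the 58, 37 were called lower at 6 hpa and 12 higher. The number rested on single libraries, and without each of the 20 in turn it lay between 20 and 69. It was 25, 23 and 35 without control replicates 1, 2 and 3 of 0 hpa, and 37, 20 and 35 without bmp4 RNAi replicates 1, 2 and 3 of 0 hpa. Among the 6 hpa libraries it was 23, 32, 27, 29 and 33 without control replicates 1 to 5 and 23 without bmp4 RNAi replicate 4.

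ADAMTS20 was the named transcript whose difference grew most clearly after amputation. In control wounds it was 38.3 ± 3.61 CPM at 0 hpa, 39.1 ± 3.48 at 3 hpa and 116 ± 8.09 at 6 hpa (SD, n = 5), and in bmp4 RNAi 32.1 ± 2.61, 32.8 ± 2.60 and 61.5 ± 5.68 CPM. Its mean in bmp4 RNAi was a little below control at 0 and 3 hpa and well below it at 6 hpa. The difference from 0 hpa was -0.66 (SE 0.118, edgeR adjusted p = 0.00182). It was called under every setting tried except the 2-fold minimum, which a change of that size does not reach. NOTCH1 was 12.3 ± 1.53 CPM in control and 14.3 ± 0.890 CPM in bmp4 RNAi at 0 hpa, and 25.1 ± 1.94 against 20.5 ± 1.60 CPM at 6 hpa. Its order turned between those times (-0.51, SE 0.121, edgeR adjusted p = 0.0400), a call lost without 14 of 20 libraries in turn (0.0507 to 0.103). ABCA1, a lipid transporter, was lower in bmp4 RNAi at both times and less so at 6 hpa, by 0.52 (edgeR adjusted p = 0.0334, lost without 12 of 20 libraries, 0.0522 to 0.0759). FTH1, the iron-storing ferritin heavy chain, had 0.51 (edgeR adjusted p = 0.0493, lost without 17 of 20, 0.0506 to 0.119).

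Set against the mean of the other 5 times, the 6 hpa difference passed in 133 transcripts (0.719%), 62 positive and 71 negative, with 2224 at an unadjusted p under 0.05. Of the 133, 60 were lower and 37 higher at 6 hpa. Without each library of the 60 in turn the number was 50 to 221. Of the 6 hpa libraries it was 60 and 50 without control replicates 1 and 3, 72 and 56 without bmp4 RNAi replicates 1 and 3, and 221 without bmp4 RNAi replicate 5. TRAF2 (dd_10569) peaked at 6 hpa in control, with 7.28 ± 0.494, 14.3 ± 2.02, 21.0 ± 1.94 and 10.02 ± 0.689 CPM at 0, 3, 6 and 16 hpa. In bmp4 RNAi it was 7.09 ± 1.28, 15.9 ± 2.28, 13.3 ± 2.20 and 8.19 ± 0.913 CPM, near control at 3 hpa and lower at 6 hpa. The contrast was -0.52 (SE 0.126, edgeR adjusted p = 0.0282), and it was lost without bmp4 RNAi replicate 3 (0.0964) or 5 (0.0577) or control replicate 1 (0.0646) or 5 (0.0696) of 6 hpa.

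A pair of transcripts from the list of muscle and the contractile apparatus also differed more at 6 hpa than at the other times. CFL1 had its only lower level there, 3.08 ± 0.373 against 4.64 ± 0.507 CPM, with 4.14 ± 0.533 against 3.64 ± 0.462 CPM at 0 hpa. The contrast was -0.71 (SE 0.164, edgeR adjusted p = 0.0188), lost without control replicate 3 of 6 hpa (0.0631). ATP2A2 rose in control from 362 ± 31.8 CPM at 0 hpa to 674 ± 25.7 CPM at 6 hpa and in bmp4 RNAi from 355 ± 32.4 to 499.6 ± 72.7 CPM, a contrast of -0.32 (edgeR adjusted p = 0.0487) that was lost without 40 of the 60 libraries in turn (0.05 to 0.231). BPTF, a chromatin remodelling subunit, was lower at 6 hpa than at 0 hpa in both conditions. It was 15.9 ± 2.11 CPM in control and 19.4 ± 2.58 CPM in bmp4 RNAi, from 30.6 ± 1.58 and 28.0 ± 5.27 CPM at 0 hpa. Its RNAi difference at 6 hpa minus the mean of those at the other 5 times was 0.56 (SE 0.120, edgeR adjusted p = 0.0109). Its change at 6 hpa alone, 0.28, was not called (edgeR adjusted p = 0.0722). The contrast also takes in lower means in bmp4 RNAi at 24 hpa (22.5 against 32.4 CPM) and 48 hpa (17.4 against 26.5 CPM). At 3 and 16 hpa the means were closer, 20.6 against 22.7 CPM and 32.7 against 32.2 CPM. ABCA1 had a contrast of 0.36 (edgeR adjusted p = 0.0384) and TCAF2 one of 0.48 (edgeR adjusted p = 0.0441), lost without 8 and 19 of the 60 libraries in turn (up to 0.157 and 0.184).

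**Figure D5:**
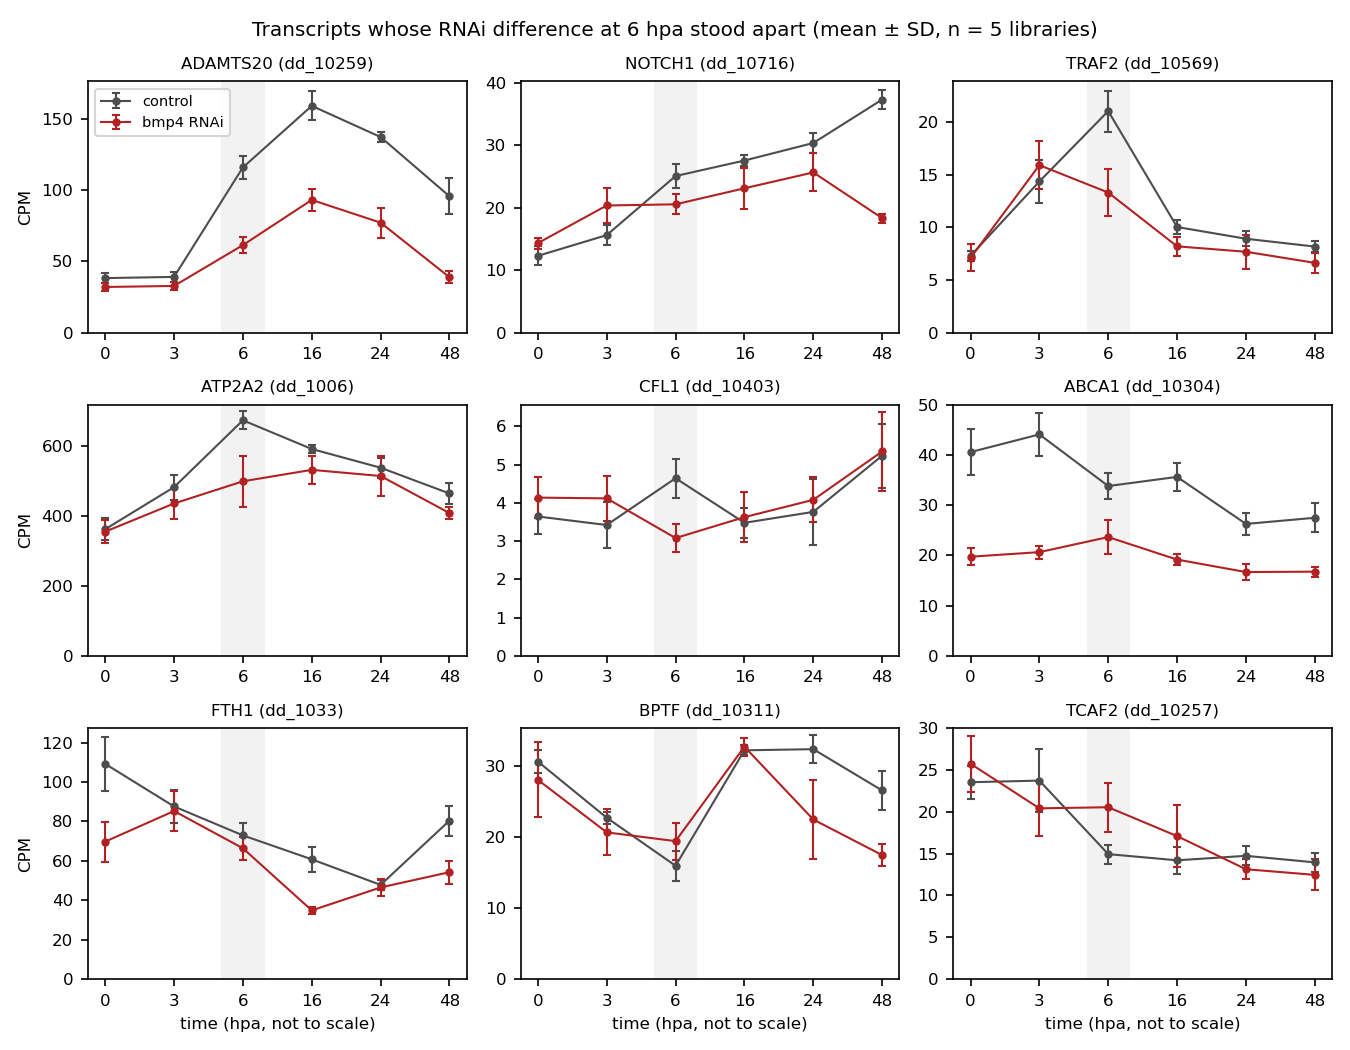
Mean CPM ± SD (n = 5, vertical axes) of 9 transcripts in control (grey) and bmp4 RNAi (red) at each of the 6 times (horizontal axes, hours post amputation, not to scale), for the named transcripts whose 6 hpa difference was called against 0 hpa or against the other 5 times. The gap in ADAMTS20 widens between 3 and 6 hpa. TRAF2 (dd_10569) peaks at 6 hpa in control at 21.0 CPM and at 3 hpa in bmp4 RNAi at 15.9 CPM.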

How the data were processed

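Polyadenylated RNA of anterior-facing wounds was sequenced in 60 libraries, 12 groups of 5, of which the 10 libraries of 6 hpa are described. The authors mapped reads with bowtie, keeping best alignments, to the dd_Smed_v6 transcriptome, counted them with coverageBed of bedtools and summed the contigs of an isotig. The submitters' processing notes name CASAVA 1.9, cutadapt 1.8, Bowtie 1.2, SAMtools 1.6 and DESeq. The deposited values are raw counts for 28742 transcripts, and a second deposited table of DESeq results was not used. Strand use and the handling of reads with several alignments are not given in the sources used here. Depth at 6 hpa was 13041181 to 23912275 counts a library.

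Counts were filtered with filterByExpr (minimum count 10, minimum total 15), which left 18510 transcripts with 99.91% of counts, scaled by TMM, and fitted with edgeR 4.0.16 (limma 3.58.1, R 4.3.3) by a robust quasi-likelihood fit of 12 group means over all 60 libraries. The biological coefficient of variation was 12.5%. Contrasts were two-sided and p-values were adjusted by Benjamini-Hochberg over all transcripts tested, with calls below 0.05. The script was tested on simulated counts. Exact permutation tests of log2(CPM + 1) enumerated 252 arrangements (scipy 1.17.1, Python 3.11.15). Set levels are means of log2 CPM with a prior count of 2. Figures used matplotlib 3.10.9.

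Named transcripts were bmp4, equinox, the 8 mitochondrial transcripts, the 12 largest matched rises and 12 largest matched falls called at 6 hpa without overlap, called members of the gene lists, all BMP and TGF-beta members, matched transcripts called in either contrast between times, and the 2 largest unmatched rises and falls. Matches came from an annotated portion of 1200 transcripts, and other transcripts were not named here. The members and lists were chosen with earlier results of these data known. Alternatives were other scalings (RLE, library totals), no filter, DESeq2 1.42.0, a replicate block, a covariate for the first residual component, the 10 libraries alone, a 2-fold minimum and leaving out each library. Leaving out libraries for the sets, and the counts of 3 gene lists under each alternative, were added after seeing the data.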

Additional observations from a re-analysis of the deposited data

Results flagged for a closer look

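In groups of 5, a highest or lowest library was marked where its gap to the next exceeded 0.71 of the group's range (Dixon's critical value). Chance marks about 1 in 20 groups, and 16 of 178 groups were marked, 10 of them in bmp4 RNAi and 5 of these in replicate 3. Replicate 3 of bmp4 RNAi had the extreme level in RAB11FIP4 (23.5 CPM), LRRD1 (15.3 CPM), CYP2S1 (5.75 CPM), the unmatched dd_6328_1_1 (2.64 CPM) and ADAMTS20 (51.4 CPM). Replicate 5 of bmp4 RNAi had it in 4 mitochondrial transcripts, dd_753 (283 CPM), dd_957 (116 CPM), dd_292 (438 CPM) and dd_344 (634 CPM), the last also marked in control replicate 5 (207 CPM). The others were FOXRED1 in bmp4 RNAi replicate 1 (18.8 CPM) and, in control, dd_1028 in replicate 5 (4.55 CPM), CYP2S1 in replicate 3 (6.85 CPM), BPTF in replicate 5 (19.6 CPM), MAATS1 in replicate 4 (19.3 CPM) and C1GALT1 in replicate 2 (2.94 CPM). FOXRED1 falls outside the rule for named transcripts.

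The RNAi difference itself differed between times in named transcripts, by the edgeR test of that difference. Against 0 hpa the difference at 6 hpa changed by -0.66 in ADAMTS20, -0.51 in NOTCH1, 0.52 in ABCA1 and 0.51 in FTH1. Against the mean of the other 5 times it changed by -0.71 in CFL1, -0.52 in TRAF2 (dd_10569), -0.32 in ATP2A2, 0.56 in BPTF, 0.48 in TCAF2 and 0.36 in ABCA1. Of these, only ADAMTS20 and BPTF were called under every alternative tried other than the 2-fold minimum, which neither reaches.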

How the results depend on the processing

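The number called at 6 hpa was 3166, and 3154 with RLE, 3333 with library totals and 3275 with DESeq2. It was 4796 with the residual component as a covariate, 2102 with the 10 libraries alone, 351 at a minimum of 2-fold and 2326 to 3347 without each library. The 58 transcripts called against 0 hpa became 23 with no filter, 271 with the covariate, 107 with DESeq2, 8 at 2-fold and 20 to 69 without each library. The 133 called against the other times became 87, 912, 238 and 16, and 50 to 221. The cause of these shifts was not tested. For bmp4 the 10 libraries gave -1.36 (edgeR adjusted p = 0.0137), and leaving out each library gave -1.64 to -1.15. For equinox that range was -2.21 to -1.91, and for the difference in mitochondrial share -0.028 to 0.064 percentage points.

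The median of the set induced at 3 hpa was -0.65 with a 4-fold minimum and -0.43 to -0.35 without each library. For the set reduced at 3 hpa it turned to -0.39 at 4-fold, where 4 members are left, and was 0.18 to 0.31 without each library. The set induced at 16 hpa had -0.75 at 4-fold, -0.28 with library totals and -0.37 to -0.32 without each library, and the set reduced at 16 hpa 0.20 to 0.28. The sets called at 0 hpa had 0.39 to 0.43 and -0.42 to -0.37. Cilia calls were 13 with the covariate and 7 to 11 without each library, matrix calls 4 to 5 and muscle calls 6 to 6.

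Of 70 other named transcripts called at 6 hpa, 51 were called under every alternative but the 2-fold minimum, which was applied to counts alone, 18 lost the call without some single library, 11 of them without bmp4 RNAi replicate 3, and 0 reversed. With the replicate number as a block the counts were 3075, 44 and 115. Deviations of libraries with the same number correlated at -0.124 to 0.04, so the numbers were not taken as pairs.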
